A study of Homo sapiens with 9 samples.

Results

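The 10 genes described here carry glucose into the cell, break it down to pyruvate, reduce the pyruvate to lactate and let the lactate out. They are SLC2A1, HK1, HK2, PFKP, ALDOA, PGK1, ENO1, PKM, LDHA and SLC16A3, taken by gene symbol from the 57736 genes of the deposited count table, and 10 of 10 were found and passed the filter on low counts, together with 14614 genes in all. RNA was sequenced from SKMEL-147 cells, a human melanoma line, that stably expressed the Cas9 nuclease and had been infected as a pool with a lentivirus holding a guide RNA and a GFP reporter. The 9 libraries fell into 3 groups of 3, labelled A, B and C within each group. The group sgScr received a scrambled guide, sgPHF8-1 the guide sgPHF8 #1 and sgPHF8-3 the guide sgPHF8 #3, both against PHF8, a histone lysine demethylase. All 3 groups share the nuclease and the vector, and cells that a guide left unedited stay in each pool.

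Both guides are shown because every comparison below rests on them, with the 3 bases of the PAM, the short motif that Cas9 needs next to its target, in capitals.
sgPHF8 #1: gtcacactcgatcatgaagcGGG
sgPHF8 #3: tcctcctgagcctaaacaagAGG
On GRCh37 (hg19), the first target lies at chrX:54069090-54069112 on the plus strand, in coding exon 2 of the canonical PHF8 transcript, and the second at chrX:53966769-53966791 on the minus strand, in exon 21 of 22. PHF8 itself is transcribed from the minus strand.

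In glycolysis, glucose enters through transporters such as GLUT1, the product of SLC2A1, and is trapped as a phosphate ester by a hexokinase. Phosphofructokinase then commits the sugar to the pathway, aldolase splits it, and phosphoglycerate kinase, enolase and pyruvate kinase finish the route to pyruvate. Lactate dehydrogenase turns pyruvate into lactate, which leaves with a proton through the monocarboxylate transporter MCT4, the product of SLC16A3. Many tumor cells run this route at a high rate even with oxygen at hand, and the transcription factors HIF-1 and MYC are known activators of many of its genes.

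The libraries held 17366120 to 19838142 counts each, at least 19446946 in sgScr and at most 19019118 in the guide groups, so that depth moved with the group, and its part in the results was not tested. sgPHF8-1 B stood apart from the rest, with 22427 genes detected against 23035 to 23229 in the others and the widest scatter around its group mean (root mean square 0.087 on the log2 scale against 0.057 to 0.073). Of 10 genes, 8 had their highest value of the sgPHF8-1 group in that library, and 9 of 10 had their highest value of the sgPHF8-3 group in sgPHF8-3 A. Nothing in the labels says that the libraries of a group came from separate cultures, although the study's methods speak of biological replicates, so the spread may be partly technical.

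As to the label of the cells, the melanoma regulators SOX10 and MITF were present (means of 2590 and 254 normalized counts over all libraries), whereas the pigment genes MLANA and TYR were at 0 and PMEL, DCT, TYRP1 and the marker S100B did not exceed a mean of 5.24. AXL, a receptor of undifferentiated melanoma, was at 28265. Of 12 markers of fibroblasts, endothelium, blood and epithelium, 11 had a row in the table, with sums of 359 to 385 in sgScr, 337 to 354 in sgPHF8-1 and 295 to 314 in sgPHF8-3, and DCN and CD3E at 0 throughout. Most of each sum was the fibroblast marker LUM, at a mean of 288, above that of MITF, and none of the others exceeded the mean of 26.7 of KRT14. Of the 3 that could be tested, KRT14 and PDGFRB were called lower in sgPHF8-1 and KRT14 and LUM in sgPHF8-3, and their part in the results below was not tested.

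PHF8 checks the labels first. Its normalized counts (counts divided by 1 size factor per library) were 655, 606 and 634 in sgScr, 564, 571 and 565 in sgPHF8-1 and 399.8, 387 and 434 in sgPHF8-3. All 6 guide libraries lay below the sgScr libraries, and the guide groups did not overlap. PHF8 fell by 10.3% in sgPHF8-1 (log2 fold change -0.16 ± 0.054 SE, adjusted p = 0.027) and fell by 35.6% in sgPHF8-3 (-0.63 ± 0.057, adjusted p = 6.4e-09), by edgeR's quasi-likelihood test with Benjamini-Hochberg adjustment over all 14614 genes, which gives every adjusted p below unless another test is named. A count of PHF8 reads does not show whether its coding sequence was edited. By Western blot, a measure of protein, the study reported efficient PHF8 knockout with both guides in this line.

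Per length of transcript, expression of the 10 genes in the control cells was lowest for the hexokinases and highest for enolase and pyruvate kinase. In sgScr, ENO1 reached 22649 ± 112 normalized counts per kb of its canonical transcript (mean ± SD, n = 3), PKM 16319.7 ± 115 and LDHA 7716 ± 27.8. ALDOA stood at 5594 ± 64.5, PFKP at 2537 ± 49.0 and PGK1 at 2333 ± 7.59. SLC16A3 followed at 1726 ± 33.0, SLC2A1 at 1588 ± 25.7, HK1 at 808 ± 7.06 and HK2, the inducible hexokinase, at 106 ± 2.59. Neighbours in this order differed by more than their SDs, but PFKP and PGK1 exchange places, as do SLC16A3 and SLC2A1, when counts are divided by the length of all annotated exons (858 against 2063 and 485 against 813 per kb).

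**Figure D1:**
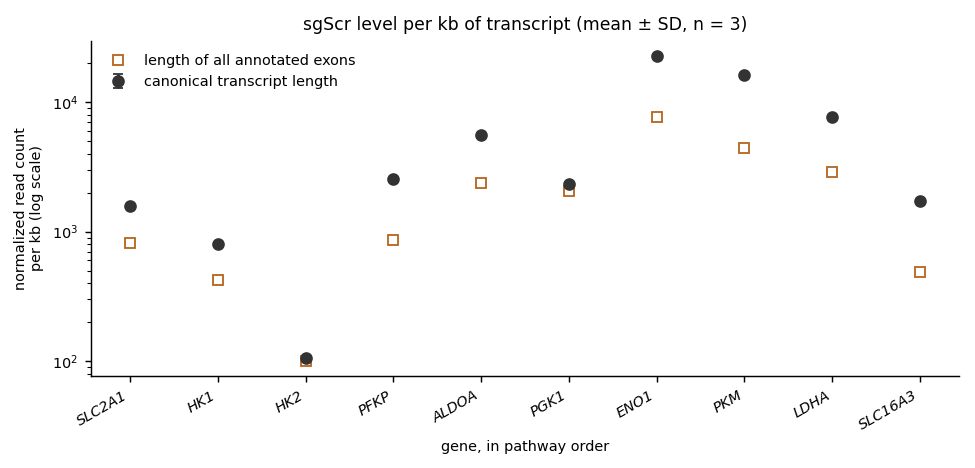
Normalized read count per kb in the 3 sgScr libraries (log axis) for the 10 genes in pathway order, with filled points for the mean over the canonical transcript length and open squares for the length of all annotated exons. Error bars show the SD (n = 3) and are smaller than most points, with ENO1 highest at 22649 and HK2 lowest at 106 per kb of canonical transcript.

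The promoters of 3 of the genes are printed because they hold the letters ACGTG and because the genes behind them gave different results below. These letters are 1 form of the core of the element that HIF-1 binds, and other forms were not searched for. Each window holds 240 bases before the first RefSeq transcript start, with the 10 bases next to the start left off. It is written in the direction of transcription, with ACGTG on either strand in capitals.
HK2: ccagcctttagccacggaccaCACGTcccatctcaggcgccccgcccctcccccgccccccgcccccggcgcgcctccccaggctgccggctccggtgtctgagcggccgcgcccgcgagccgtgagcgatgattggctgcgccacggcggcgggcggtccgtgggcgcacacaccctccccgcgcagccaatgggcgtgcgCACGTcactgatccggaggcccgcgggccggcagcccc
PGK1: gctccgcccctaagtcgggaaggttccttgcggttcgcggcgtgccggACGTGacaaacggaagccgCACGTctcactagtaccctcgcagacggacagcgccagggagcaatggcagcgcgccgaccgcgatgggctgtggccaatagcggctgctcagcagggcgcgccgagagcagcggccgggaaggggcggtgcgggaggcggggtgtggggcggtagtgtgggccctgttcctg
LDHA: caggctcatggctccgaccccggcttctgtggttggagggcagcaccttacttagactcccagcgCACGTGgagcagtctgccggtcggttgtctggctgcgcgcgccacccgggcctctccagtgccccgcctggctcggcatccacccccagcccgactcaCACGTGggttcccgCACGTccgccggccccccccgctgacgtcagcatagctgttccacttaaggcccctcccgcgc
On GRCh37 these windows are chr2:75061004-75061243 for HK2, where the window overlaps an exon of the divergent transcript HK2-DT, chrX:77359495-77359734 for PGK1 and chr11:18415860-18416099 for LDHA, all on the plus strand. ACGTG was searched on both strands in the 250 bases before each start of the RefSeq table (GRCh38.p14). It occurred 2 times for HK2, beginning 229 and 48 bases before the start, 2 times for PGK1, at 202 and 183, and 1 time for ALDOA. LDHA held 5 matches, of which 4 lie in a pair of CACGTG palindromes that read ACGTG on both strands and so overlap. In all, 4 of 10 genes held it before their first start, and counted over every start, 9 of the 27 windows of these genes did, against 18.5% of the 35116 windows of all genes. A match is a string of letters and not a binding site. SLC2A1, HK1, ENO1 and PKM lacked these letters in the 250 bases before every start, and sequence farther off was not searched. PFKP and SLC16A3 lacked them before the first start but held them before 1 of 4 and 1 of 5 starts.

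With guide sgPHF8 #1, 5 of 10 genes were called against sgScr, with HK1, HK2, PFKP and ALDOA higher and SLC2A1 lower. Over all genes tested, 30.9% were called in this comparison, 15.2% higher and 15.7% lower, and 46.8% of the 5829 genes with a mean at least as high as that of HK2. With guide sgPHF8 #3, 5 of 10 were called as well, but these were HK2 and PFKP higher and PKM, LDHA and SLC16A3 lower. Here 19.3% of all genes tested were called, 9.48% higher and 9.78% lower, and 30.6% of the genes at least as high as HK2. For sgPHF8 #1 the members' share was thus close to that of similarly expressed genes. For sgPHF8 #3 the count of 5 became 3 without sgScr A and 2 without sgScr B, sgScr C or sgPHF8-3 C, so that nothing is read from it about the members. When a log2 fold change of at least 0.25 was also asked for, HK2 with sgPHF8 #1 was the only call left, and the counts of alternatives given below are of refits judged by the adjusted p alone. Both comparisons share the sgScr libraries. Changes were small, from a fall of 9.7% to a rise of 24.5% among the calls, and the medians of the 10 log2 fold changes, 0.06 and 0.02, lay beside medians of 0.0 and -0.001 over all genes tested.

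**Figure D2:**
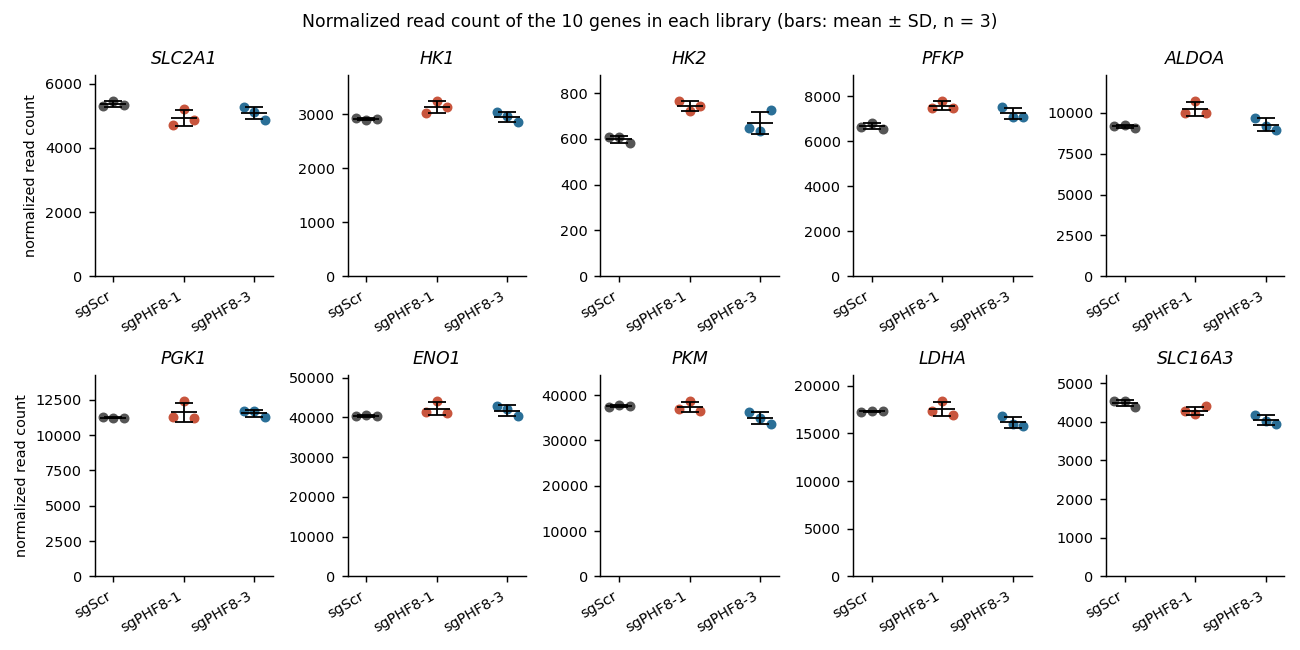
Normalized read counts of the 10 genes in each of the 9 libraries, on axes that start at 0, with points for libraries A, B and C from left to right and bars for the mean ± SD (n = 3). HK2 and PFKP lie higher in all 6 guide libraries than in the sgScr libraries, while PKM, LDHA and SLC16A3 are lowest in sgPHF8-3.

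Glucose uptake came first. SLC2A1 gave 5313, 5473 and 5334 normalized counts in sgScr, 4725, 5207 and 4869 in sgPHF8-1 and 5281, 5115 and 4889 in sgPHF8-3. Neither guide group overlapped with sgScr, although the highest sgPHF8-3 library came close to the lowest control. SLC2A1 fell by 8.2% with sgPHF8 #1 (log2 fold change -0.12 ± 0.035 SE, adjusted p = 0.0073). The difference of -5.2% with sgPHF8 #3 (95% interval -9.7 to -0.4%) did not pass the test (adjusted p = 0.12). The first call was lost without sgPHF8-1 A, with adjusted p from 0.0002 to 0.072 over 16 alternatives.

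The hexokinases phosphorylate glucose, HK1 in most tissues and HK2 mainly in muscle, fat and tumors. HK2 counts were 607, 608 and 582 in sgScr, 767, 723 and 746 in sgPHF8-1 and 649, 637 and 725 in sgPHF8-3. Every guide library exceeded every control, and sgPHF8-3 C stood well above A and B of its group. HK2 rose by 24.5% with sgPHF8 #1 (95% interval 15.4 to 34.3%, log2 fold change 0.32 ± 0.053, adjusted p = 4.8e-05), the widest change of the 10, and stayed called in 16 of 16 refits and above the floor of 0.25. Its rise of 11.8% with sgPHF8 #3 (0.16 ± 0.054, adjusted p = 0.037) was less firm. That call was lost without any 1 of the sgScr libraries, without sgPHF8-3 C, with DESeq2 and with no filter on low counts, so that it held in 10 of 16 alternatives with adjusted p from 0.022 to 0.23.

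HK1 read 2936, 2886 and 2906 in sgScr, 3017, 3246 and 3126 in sgPHF8-1 and 3043, 2956 and 2857 in sgPHF8-3. It rose by 7.5% with sgPHF8 #1 (log2 fold change 0.10 ± 0.033, adjusted p = 0.018), and its sgPHF8-3 libraries lay on either side of the controls (adjusted p = 0.72). The call was lost without sgScr B, sgScr C or sgPHF8-1 B, with adjusted p from 0.0096 to 0.071 over the alternatives. Within a library, the log2 ratio of HK2 to HK1 counts was -2.27, -2.25 and -2.32 in sgScr, -1.98, -2.17 and -2.07 in sgPHF8-1 and -2.23, -2.22 and -1.98 in sgPHF8-3. Relative to HK1, HK2 was thus higher in all 6 guide libraries, by 0.21 and 0.14 on average, although the latter value was 0.06 without sgPHF8-3 C and neither passed its exact test (p = 0.1).

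PFKP, the platelet-type subunit of phosphofructokinase, was the other gene higher with both guides. Its counts were 6627, 6806 and 6557 in sgScr, 7459, 7794 and 7483 in sgPHF8-1 and 7513, 7087 and 7093 in sgPHF8-3, with no overlap between either guide group and the controls. It rose by 13.7% with sgPHF8 #1 (log2 fold change 0.19 ± 0.031, adjusted p = 4.1e-05), called in 16 of 16 refits but below the floor of 0.25. With sgPHF8 #3 it rose by 8.5% (0.12 ± 0.031, adjusted p = 0.0079), a call lost without sgScr C or sgPHF8-3 A (adjusted p from 0.0012 to 0.077 over the alternatives). The remaining subunits of the enzyme parted from each other. PFKM, the muscle type, rose by 21.7% and 10.6% (adjusted p = 7.9e-07 and 0.0052), and PFKL, the liver type, fell by 8.4% and 8.0% (adjusted p = 0.018 and 0.036) with sgPHF8 #1 and sgPHF8 #3. The log2 ratio of PFKL to PFKP counts accordingly differed from sgScr by -0.31 and -0.24, without overlap, whereas that of PFKM to PFKP overlapped with sgScr for both guides.

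ALDOA, the main aldolase of muscle and tumor cells, separated the guides. Its counts were 9224, 9246 and 9053 in sgScr, 9991, 10745 and 10026 in sgPHF8-1 and 9701, 9176 and 8937 in sgPHF8-3. All sgPHF8-1 libraries exceeded all others, and sgPHF8-3 overlapped with sgScr. ALDOA rose by 11.7% with sgPHF8 #1 (log2 fold change 0.16 ± 0.033, adjusted p = 0.00042) and stayed called in 16 of 16 refits but below the floor of 0.25, whereas it differed by 1.1% with sgPHF8 #3 (95% interval -3.5 to 5.9%, adjusted p = 0.8).

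PGK1 and ENO1, the kinase that yields the first ATP gained by the pathway and the enolase expressed in most tissues, were not called with either guide. PGK1 counts were 11266, 11209.9 and 11197 in sgScr, 11275, 12403 and 11195 in sgPHF8-1 and 11722, 11677 and 11265 in sgPHF8-3. The groups overlapped in every pairing, and sgPHF8-1 B alone lay far above the rest of its group. The 95% interval of the difference was -1.2 to 8.4% for sgPHF8 #1 (adjusted p = 0.27) and -1.7 to 7.8% for sgPHF8 #3 (adjusted p = 0.41), so that a rise of several percent cannot be told from none. ENO1, the most abundant member, read 40218, 40569 and 40227 in sgScr, 41424, 44068 and 41085 in sgPHF8-1 and 42755, 42025 and 40229 in sgPHF8-3. Its sgPHF8-1 libraries all exceeded the controls, yet the difference of 4.6% (95% interval 0.3 to 9.0%) had an adjusted p of 0.1, and that of 3.3% with sgPHF8 #3 one of 0.29. With upper-quartile scaling the former passed at 0.036, and the range over the alternatives was 0.036 to 0.31.

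At the end of the pathway, the 3 genes from pyruvate kinase to lactate export were lower with sgPHF8 #3. PKM, whose transcripts give both the M1 and the M2 form of pyruvate kinase, read 37340.2, 37867 and 37644 in sgScr, 36811, 38650.2 and 36559.6 in sgPHF8-1 and 36151, 34945 and 33553 in sgPHF8-3. The sgPHF8-3 libraries lay below all others, while sgPHF8-1 spread to both sides of sgScr. PKM fell by 7.3% with sgPHF8 #3 (log2 fold change -0.11 ± 0.029, adjusted p = 0.0094) and differed by -0.8% with sgPHF8 #1 (95% interval -4.8 to 3.5%, adjusted p = 0.82). Without sgScr B or sgPHF8-3 C the call was lost (adjusted p from 0.00061 to 0.056 over the alternatives). Counts per gene do not separate the M1 and M2 forms.

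LDHA encodes the subunit of lactate dehydrogenase that favors lactate formation. Its counts were 17231, 17291 and 17355 in sgScr, 17376, 18377 and 16931 in sgPHF8-1 and 16836, 15929 and 15742 in sgPHF8-3. Again every sgPHF8-3 library lay below all others, the nearest being sgPHF8-1 C. LDHA fell by 6.5% with sgPHF8 #3 (log2 fold change -0.10 ± 0.031, adjusted p = 0.029), and differed by 1.5% with sgPHF8 #1 (95% interval -2.9 to 6.1%, adjusted p = 0.65). The call with sgPHF8 #3 was lost without sgScr A, B or C or sgPHF8-3 B or C and held in 11 of 16 alternatives, with adjusted p from 0.0036 to 0.13. The 6 pseudogene rows of LDHA held 2.26% as many counts as the gene itself, and how reads were split between them was not tested.

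SLC16A3, which encodes the lactate exporter MCT4 of glycolytic cells, gave the firmest fall of the 3. Its counts were 4533, 4537 and 4386 in sgScr, 4269, 4199.5 and 4407 in sgPHF8-1 and 4178, 4029 and 3938 in sgPHF8-3. The sgPHF8-3 libraries lay below all others, and sgPHF8-1 overlapped with sgScr through its library C. SLC16A3 fell by 9.7% with sgPHF8 #3 (95% interval -13.8 to -5.5%, log2 fold change -0.15 ± 0.032, adjusted p = 0.0017), a call kept in 16 of 16 refits but below the floor of 0.25. With sgPHF8 #1 the difference of -4.3% (95% interval -8.6 to 0.2%) did not pass (adjusted p = 0.14).

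**Figure D3:**
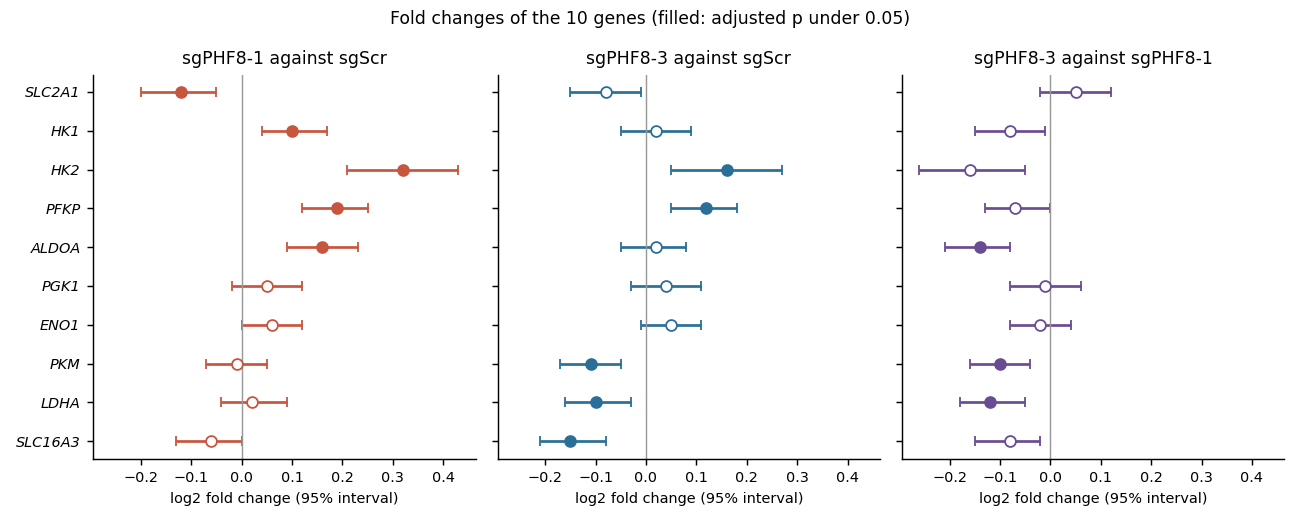
Log2 fold changes of the 10 genes, in pathway order from the top, for sgPHF8-1 against sgScr, sgPHF8-3 against sgScr and sgPHF8-3 against sgPHF8-1, with 95% intervals and filled points where the adjusted p is under 0.05. HK2 (0.32 and 0.16) and PFKP (0.19 and 0.12) are filled to the right in both guide panels, and ALDOA, PKM and LDHA are filled to the left in the third.

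Set directly against each other, the guide groups differed in 3 of 10 genes, all lower in sgPHF8-3, where 10.6% of all genes tested were called (5.83% higher and 4.74% lower) and 18.4% of the genes at least as high as HK2. ALDOA was 9.6% lower in sgPHF8-3 (log2 fold change -0.14, adjusted p = 0.0044), LDHA 7.9% lower (-0.12, adjusted p = 0.013) and PKM 6.6% lower (-0.10, adjusted p = 0.031). Only the ALDOA difference held in 16 of 16 refits. LDHA lost it without sgPHF8-3 B or C, and PKM held in 8 of 16, with adjusted p from 0.012 to 0.16. HK2 was 10.2% lower in sgPHF8-3 (95% interval -16.7 to -3.1%) at an adjusted p of 0.061, and it passed without sgPHF8-1 B or sgPHF8-3 C (0.035 and 0.015, with a highest value of 0.26). SLC16A3 passed without sgPHF8-1 B alone (adjusted p = 0.036 against 0.098 with all libraries, 0.036 to 0.32 over the alternatives). For the other members the interval of the difference between guides was -1.7 to 8.6% for SLC2A1, -10.0 to -1.0% for HK1, -8.7 to -0.3% for PFKP, -5.1 to 4.2% for PGK1 and -5.3 to 3.0% for ENO1.

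Taking the mean of both guides against sgScr, 5 of 10 genes were called, against 29.6% of all genes tested (14.7% higher and 14.9% lower) and 2562 of the 5829 genes at least as high as HK2, a share close to that of the members. Without sgScr B the count was 3. HK2, PFKP and ALDOA were higher, with log2 fold changes of 0.24, 0.15 and 0.09 (adjusted p = 0.0003, 9.8e-05 and 0.021). SLC2A1 and SLC16A3 were lower, with log2 fold changes of -0.10 and -0.11 (adjusted p = 0.012 and 0.0047). For ALDOA this mean joins a call with sgPHF8 #1 and no call with sgPHF8 #3, and it was lost without sgPHF8-3 A or any 1 sgScr library (adjusted p from 0.0066 to 0.11 over the alternatives). Without sgScr B the call of SLC2A1 was lost too (0.00048 to 0.092). Ranges of 3 libraries without overlap were found in 6 of 10 genes for sgPHF8-1 against sgScr, in 6 for sgPHF8-3 against sgScr and in 4 between the guides, beside 42.2%, 36.5% and 25.3% of all genes tested. The 10 genes together took 0.732 to 0.738% of all counts in sgScr, 0.737 to 0.765% in sgPHF8-1 and 0.704 to 0.74% in sgPHF8-3. Their summed shares overlapped in every pairing of groups, and the value of 0.765% came from sgPHF8-1 B. Without sgPHF8-1 B, the numbers of members called were 4, 6, 4 and 6 in the 4 comparisons, in place of 5, 5, 3 and 5, with HK1 lost for sgPHF8 #1, SLC2A1 gained for sgPHF8 #3 (adjusted p = 0.05 after rounding, the lowest of a range up to 0.41), and PKM gained for the mean of both guides.

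The balance of paired genes within a library does not depend on library scaling. LDHB, whose subunit favors the reverse reaction from lactate to pyruvate, rose by 9.5% with sgPHF8 #1 (adjusted p = 0.0029) and differed by 2.2% with sgPHF8 #3 (adjusted p = 0.56). The log2 ratio of LDHB to LDHA was 0.07, 0.0 and 0.01 in sgScr, 0.13, 0.15 and 0.13 in sgPHF8-1 and 0.14, 0.17 and 0.15 in sgPHF8-3. It was thus higher in all 6 guide libraries than in any control, with LDHB called higher in sgPHF8-1 and LDHA called lower in sgPHF8-3. SLC16A1, which encodes the high-affinity transporter MCT1, read 3002, 3036 and 3049 in sgScr, 3516, 3675 and 3477 in sgPHF8-1 and 3231, 3259 and 3238 in sgPHF8-3, and rose by 17.4% and 7.0% (adjusted p = 1.9e-06 and 0.027). The log2 ratio of SLC16A1 to SLC16A3 went from -0.59, -0.58 and -0.52 in sgScr to -0.28, -0.19 and -0.34 in sgPHF8-1 and -0.37, -0.31 and -0.28 in sgPHF8-3. The guide groups lay 0.29 and 0.25 above sgScr without overlap, a difference that could not pass its exact test (p = 0.1, adjusted p = 0.17 for each guide).

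ENO2, the neuronal enolase, fell by 11.3% and 12.7% (adjusted p = 0.0017 and 0.001), and its log2 ratio to ENO1 differed from sgScr by -0.24 with each guide. The ratio of SLC2A3 to SLC2A1 differed by 0.23 in sgPHF8-1 without overlap and by 0.03 in sgPHF8-3 with it, and that of ALDOC to ALDOA by -0.22 without and -0.11 with overlap. Of 8 ratios, 7 did not overlap with sgScr in sgPHF8-1 and 5 in sgPHF8-3, beside 42.2% and 36.5% of single genes tested. The share over all possible pairs was not computed, and the pairs were set with earlier results of these data known, so nothing is read from these counts. Groups of 3 against 3 allow no exact two-sided permutation p below 0.1, so that none of the 24 ratio tests could pass, and the smallest adjusted p was 0.17.

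**Figure D4:**
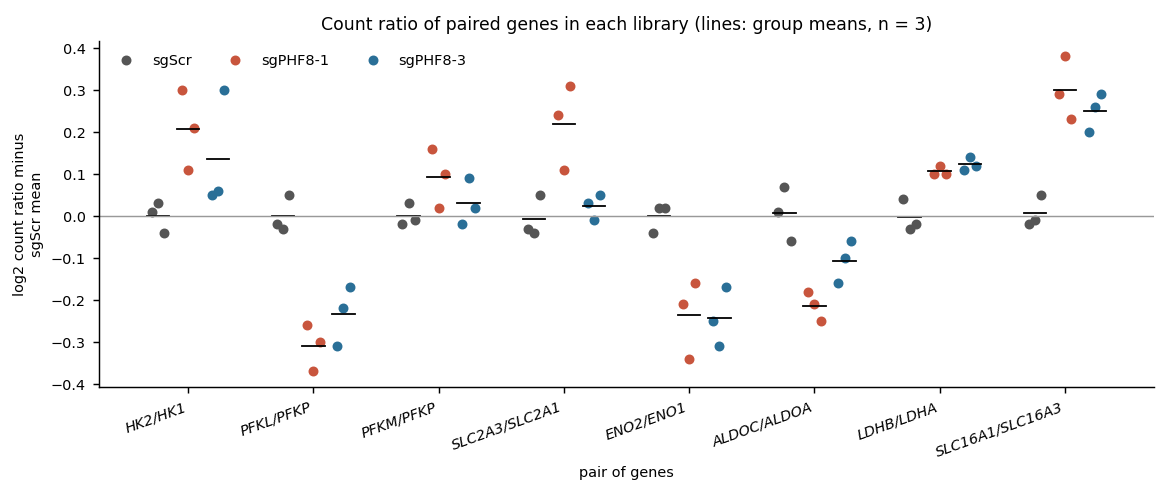
Log2 ratio of the counts of paired genes in each library, minus the sgScr mean of that ratio, with points for single libraries and lines for group means (n = 3). The ratios LDHB/LDHA and SLC16A1/SLC16A3 lie above all sgScr points in all 6 guide libraries, with mean differences of 0.11 and 0.13 and of 0.29 and 0.25, and PFKL/PFKP and ENO2/ENO1 lie below.

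Of 26 further genes of the pathway, 14 were expressed enough to test, of which 4 rose and 3 fell with sgPHF8 #1 (median log2 fold change 0.04). With sgPHF8 #3, 1 rose and 2 fell (median -0.04), and without sgPHF8-1 B 2 rose and 2 fell of 15 tested. Over all genes tested 30.9% and 19.3% were called, and 46.8% and 30.6% of those at least as high as HK2, a level that 6 of these 14 genes did not reach. GAPDH, the dehydrogenase often used as a reference gene, differed by 2.4% and -1.3% (95% intervals -2.2 to 7.1% and -5.7 to 3.3%). Triosephosphate isomerase, TPI1, rose by 14.4% with sgPHF8 #1 (adjusted p = 3.5e-05) and differed by 4.4% with sgPHF8 #3 (adjusted p = 0.18). TPI1, like PFKL, PFKM, ENO2 and others given below outside the naming rule, was picked after its values were seen. Among transporters, SLC2A6 fell by 24.5% with sgPHF8 #1 (adjusted p = 0.0021) and differed by -13.2% with sgPHF8 #3 (adjusted p = 0.13). SLC2A12, a transporter at a mean of only 26.8 normalized counts, was called in the mean of both guides (log2 fold change -0.58, adjusted p = 0.046) but with neither guide alone.

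Of the regulators of phosphofructokinase, 4 of 5 could be tested, and PFKFB2 and TIGAR rose with sgPHF8 #1 (log2 fold changes 0.18 and 0.28) while none was called with sgPHF8 #3, beside 30.9% and 19.3% of all genes tested. TIGAR, a phosphatase that lowers the activator of phosphofructokinase, was also lower in sgPHF8-3 than in sgPHF8-1 (-0.22, adjusted p = 0.014), a call lost without sgPHF8-1 B. Among lactate isozymes and transport, 5 of 10 were tested, with 3 higher with sgPHF8 #1 (15.2% of all genes tested), and 2 higher and 1 lower with sgPHF8 #3 (9.48% and 9.78%). All 5 lay above HK2 in level, where 46.8% of genes were called in either direction with sgPHF8 #1 and 30.6% with sgPHF8 #3. The transporter gene SLC16A7 rose by 10.9% and 13.0% (adjusted p = 0.019 and 0.01). Basigin, BSG, the chaperone that carries MCT1 and MCT4 to the cell surface, fell by 6.5% with sgPHF8 #3 (adjusted p = 0.036), like SLC16A3, and differed by 1.6% with sgPHF8 #1 (adjusted p = 0.66). Between the guides 3 of these 5 genes were called lower in sgPHF8-3, beside 4.74% of all genes tested, and 1 was without sgPHF8-1 B.

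The next lists cover the fate of pyruvate in mitochondria and the side branches of glycolysis, for which the shares of all genes called were 30.9% with sgPHF8 #1 and 19.3% with sgPHF8 #3. Of 15 genes of mitochondrial pyruvate entry, 14 were tested, with 1 higher and 4 lower with sgPHF8 #1 and 0 higher and 2 lower with sgPHF8 #3. Without sgPHF8-1 B, 0 were higher and 4 lower with sgPHF8 #1, and 1 was higher and 2 lower with sgPHF8 #3. PDP1, a phosphatase that activates pyruvate dehydrogenase, read 6617, 6500.1 and 6383 in sgScr, 5099, 5192 and 4958 in sgPHF8-1 and 5587, 5535 and 5634 in sgPHF8-3. The groups were fully apart, and PDP1 fell by 21.8% with sgPHF8 #1 and fell by 14.1% with sgPHF8 #3 (adjusted p = 5.3e-10 and 4.3e-06). In the pentose phosphate branch, 7 of 8 were tested, and 2 rose with sgPHF8 #1 while 1 rose and 1 fell with sgPHF8 #3. Of 18 genes of glycogen, hexosamine and glycerol branches, 17 were tested, with 5 higher and 3 lower with sgPHF8 #1 and 4 higher and 4 lower with sgPHF8 #3, where the called share was above that of all genes and of those at least as high as HK2 (30.6%). PYGB, the brain form of glycogen phosphorylase, fell by 22.1% and 15.1% (adjusted p = 1e-09 and 3.1e-06), and GFPT2, an enzyme of the hexosamine branch, by 20.3% and 20.7% (adjusted p = 0.027 and 0.035).

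Gluconeogenesis was largely silent, with 2 of 6 genes tested. PCK2, the mitochondrial enzyme that makes phosphoenolpyruvate, read 190.5, 172 and 198 in sgScr, 301, 291 and 287 in sgPHF8-1 and 263, 229 and 262 in sgPHF8-3. It was higher in all 6 guide libraries and rose by 56.8% and 34.2% (adjusted p = 7.6e-07 and 0.00064), more than any of the 10 genes. G6PC3 was called lower with sgPHF8 #3 (log2 fold change -0.17, adjusted p = 0.032).

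**Figure D5:**
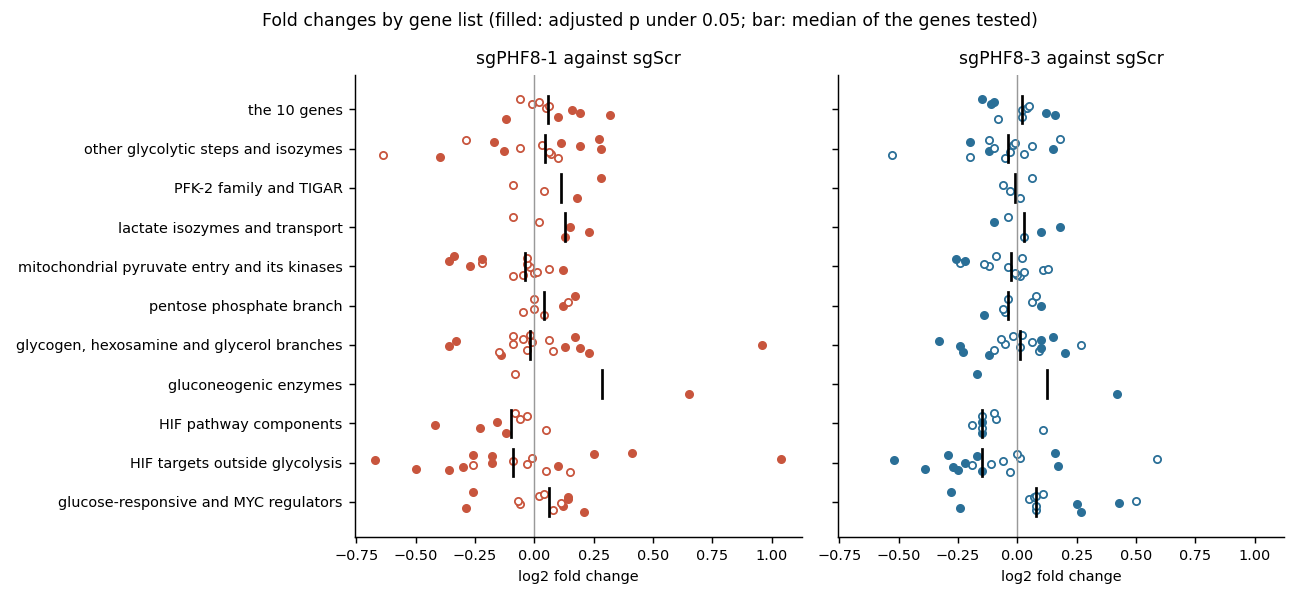
Log2 fold changes of the genes tested in each list, for sgPHF8-1 and sgPHF8-3 against sgScr, with filled points where the adjusted p is under 0.05 and a black bar at the median of the list. The 10 genes lie within -0.15 and 0.32, on both sides of 0, with medians of 0.06 and 0.02. The HIF lists have medians of -0.10 and -0.09 with sgPHF8 #1 and of -0.15 each with sgPHF8 #3. The list of HIF pathway components holds genes that restrain HIF as well as HIF subunits.

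The known activators of these genes were measured too. HIF1A, the oxygen-regulated subunit of HIF-1, read 7602, 7522 and 7465 in sgScr, 6798, 7111 and 6874 in sgPHF8-1 and 6938, 6672 and 6737 in sgPHF8-3. All guide libraries lay below all controls, and HIF1A fell by 8.0% and 9.9% (adjusted p = 0.0022 and 0.00049). Its protein is set mainly by degradation, which counts of RNA do not show. Of 10 HIF pathway components, 8 were tested, with 4 lower with sgPHF8 #1 and 2 with sgPHF8 #3 (4 without sgPHF8-1 B) and none higher, beside 15.7% and 9.78% of all genes tested called lower. The list mixes HIF subunits with VHL, EGLN1, EGLN2 and HIF1AN, which restrain HIF, so its counts give no direction of HIF activity. VHL fell by 10.8% and 9.8% (adjusted p = 0.0014 and 0.0062). ARNT2, a partner of HIF, fell by 25.1% with sgPHF8 #1 (adjusted p = 0.0073) and differed by -12.1% with sgPHF8 #3 (adjusted p = 0.26).

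Among 19 HIF targets outside glycolysis, 17 were tested, with 4 higher and 7 lower with sgPHF8 #1 (median -0.09) and 2 higher and 8 lower with sgPHF8 #3 (median -0.15). Over all genes tested, 15.2% were called higher and 15.7% lower with the former and 9.48% and 9.78% with the latter, and the lists were chosen with earlier results known. DDIT4, an inhibitor of mTORC1 signaling, read 1853, 1893 and 1868 in sgScr, 1112, 1231 and 1190.4 in sgPHF8-1 and 1391, 1259 and 1275 in sgPHF8-3, with falls that far exceeded the spread. It fell by 37.1% with sgPHF8 #1 and fell by 30.1% with sgPHF8 #3 (adjusted p = 1.5e-12 and 6.5e-10). VEGFA, the angiogenic growth factor, fell by 29.2% and 23.4% (adjusted p = 1.9e-09 and 3.3e-07), and BNIP3L, a receptor for the removal of mitochondria, by 22.2% and 16.1% (adjusted p = 6.9e-07 and 0.00018). ANGPTL4 went the other way from a low level of 17.7, 11.2 and 19 in sgScr, with 33.6, 27.0 and 38.2 in sgPHF8-1 and 29.4, 20.5 and 22.2 in sgPHF8-3, and rose with sgPHF8 #1 (log2 fold change 1.04 ± 0.255, adjusted p = 0.0024) but did not pass with sgPHF8 #3 (adjusted p = 0.13). These lists hold no glycolytic enzyme. Of the 3 genes whose promoter windows are printed above, HK2 rose with both guides, PGK1 was called with neither and LDHA fell with sgPHF8 #3. They were picked because their results differed, so nothing is read from that difference. ALDOA, which also held ACGTG before its first start, was called higher with sgPHF8 #1 only.

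Of 14 glucose-responsive and MYC regulators, 12 were tested, with 4 higher and 2 lower with sgPHF8 #1 and 3 higher and 2 lower with sgPHF8 #3. Over all genes tested 30.9% and 19.3% were called, and 46.8% and 30.6% of those at least as high as HK2. MYC read 845, 859 and 849.7 in sgScr, 1033, 926 and 998 in sgPHF8-1 and 1024 ± 49.9 (mean ± SD, n = 3) in sgPHF8-3. It rose by 16.0% and 20.3% (adjusted p = 0.0011 and 0.00019), with all guide libraries above all controls. TXNIP, a glucose-induced inhibitor of glucose uptake, separated the guides, at 369, 373 and 419 in sgScr, 345, 404 and 368 in sgPHF8-1 and 451, 459 and 468 in sgPHF8-3. It rose by 18.8% with sgPHF8 #3 (adjusted p = 0.0084), differed by -3.9% with sgPHF8 #1 (adjusted p = 0.57), and was 23.6% higher in sgPHF8-3 than in sgPHF8-1 (adjusted p = 0.0036). Among cell state markers, NGFR, a neural crest receptor, fell with both guides (log2 fold changes -0.70 and -0.29), and of the 6 markers of undifferentiated melanoma 2 were higher and 1 lower with sgPHF8 #1 and 0 higher and 1 lower with sgPHF8 #3 (2 higher and 1 lower without sgPHF8-1 B), beside 30.9% and 19.3% of all genes called. Of the melanocyte lineage 2 of 8 were tested, and SOX10 was lower with both guides.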

How the data were processed

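Total RNA was depleted of ribosomal RNA and sequenced as paired reads by the authors. Per the study's methods and the processing notes, reads were aligned with STAR to hg19 and counted per gene with HTSeq. The annotation release and strand setting are not given in the sources used here. The deposited counts are whole reads per gene. The deposited normalized values, a signal on the scale of counts, are those counts divided by 1 size factor per library by the authors, and 100.0% were whole after multiplication by the factor (tolerance 0.01). Library totals were 17366120 to 19838142 counts.

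Raw counts were fitted with edgeR 4.0.16 (R 4.3.3, TMM scaling, filterByExpr, quasi-likelihood test) over all 9 libraries with group as the only term. The p-values were adjusted by Benjamini-Hochberg over 14614 genes and called under 0.05. Percent changes and 95% intervals come from the fitted log2 fold changes and their SE. Count ratios were tested by exact permutation over libraries. Alternatives were median-of-ratios and upper-quartile scaling, no filter, only the 2 groups compared, the replicate letter as a block, each library left out, DESeq2 1.42.0, limma 3.58.1 on log2(normalized count + 1), and a floor of 0.25 on the log2 fold change. The scripts were tested on simulated data. Lengths, guide sites and gene positions come from GENCODE on GRCh37 and promoters from RefSeq.

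The 10 genes and the lists were chosen with earlier results of these data known. Of each other list, the text names up to 4 genes with the smallest p for the mean of both guides, an adjusted p under 0.05 and an absolute log2 fold change of at least 0.3, plus HIF1A, MYC, TXNIP, GAPDH, LDHB, SLC16A1, BSG and PHF8. Others named were chosen after their values were seen, and the partners in the ratios were set with the ratios. The letters A, B and C did not pair the samples.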

Additional observations from a re-analysis of the deposited data

Results flagged for a closer look

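For 3 of the 10 genes, the effects of the guides differed by a test of the difference itself (edgeR's quasi-likelihood test with Benjamini-Hochberg adjustment, sgPHF8-3 against sgPHF8-1, n = 3 libraries each). Over all genes tested 10.6% were called in this comparison, and 18.4% of those at least as high as HK2, and the count of 3 became 1 without sgPHF8-3 B. ALDOA differed by -0.14 on the log2 scale (adjusted p = 0.0044), with a call against sgScr for sgPHF8 #1 (0.16) and none for sgPHF8 #3 (0.02). PKM differed by -0.10 (adjusted p = 0.031) and LDHA by -0.12 (adjusted p = 0.013), each with a call against sgScr for sgPHF8 #3 (-0.11 and -0.10) and none for sgPHF8 #1 (-0.01 and 0.02). The PKM difference held in 8 of 16 refits judged by the adjusted p alone (adjusted p from 0.012 to 0.16), that of LDHA in 14 of 16 (0.0026 to 0.087) and that of ALDOA in 16 of 16 (0.00024 to 0.035), and none reached a log2 fold change of 0.25. PHF8 itself also differed between these groups, by -0.48 (adjusted p = 3.9e-06). No explanation was tested.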

How the results depend on the processing

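Over 630 alternative values of the 10 genes' fold changes, 578 kept their direction and their side of the threshold, 34 no longer passed it, 10 newly passed it and 8 changed direction, none of these for a difference that was called. When a log2 fold change of at least 0.25 was also asked for, the numbers of genes called became 1 (HK2) for sgPHF8-1, 0 for sgPHF8-3, 0 between the guides and 0 for both guides. Leaving out 1 library gave 2 to 6 genes for sgPHF8-3 (3 without sgScr A and 2 without sgScr B, sgScr C or sgPHF8-3 C), 1 to 4 between the guides (1 without sgPHF8-3 B) and 3 to 6 for both guides (3 without sgScr B). Changes of direction came only from leaving out a library. Their ranges were -0.03 to 0.0026 for PKM and -0.01 to 0.05 for LDHA with sgPHF8-1, -0.002 to 0.04 for HK1 and -0.02 to 0.04 for ALDOA with sgPHF8-3, and -0.03 to 0.04 for PGK1 and -0.03 to 0.01 for ENO1 between the guides. For the ratios they were -0.0015 to 0.05 for PFKM/PFKP in sgPHF8-3 and -0.06 to 0.03 for ENO2/ENO1 between the guides. The causes were not tested.

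With the replicate block, the counts of genes called stayed at 5, 5, 3 and 5 and no call of the 10 genes changed. Over 10486 genes, deviations from the group means correlated from -0.18 to 0.13 between libraries of the same letter and from -0.22 to 0.29 between those of different letters, so the letters name samples and do not pair them. With 3 libraries a group, differences of a few percent were at the limit of what these depths and spreads can show.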
